A study of Mus musculus with 12 samples.

Results

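RNA-Seq of sorted long-term hematopoietic stem cells (LT-HSCs) with low surface c-KIT was compared between chronic myeloid leukemia (CML) and normal mouse bone marrow. The comparison used 6 of the 12 libraries of the series, 3 CML c-KIT-low and 3 normal c-KIT-low, and covered every autosomal gene that passed a filter on low counts, which left 14095 of the 44131 autosomal genes in the table. The remaining 6 libraries, CML c-KIT-high and normal c-KIT-high, served to ask whether a CML change differed between the c-KIT fractions. The CML cells came from Scl-tTA-BCR-ABL mice, which carry 2 transgenes: a tetracycline-repressed transactivator (tTA) under stem cell regulatory sequence of Tal1 (Scl), and a tTA-dependent BCR-ABL1, so that the oncogene comes on in Scl-expressing blood cells once tetracycline or doxycycline is withdrawn. The labels call the normal donors B6 mice without treatment or age, whereas the study also describes controls transplanted with Scl-tTA-BCR-ABL marrow and kept on doxycycline, and which of these gave the libraries cannot be told from the labels. All groups were sorted for Sca-1, c-KIT and CD150 and against lineage markers, Flt3 and CD48, and the c-KIT-low and c-KIT-high gates were set on normal LT-HSCs and then applied to CML cells. No source used here gives the number of mice behind a library.

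LT-HSCs sustain blood production for life, and most of them are quiescent. In CML, the BCR-ABL fusion kinase arises in such a cell and drives myeloid output through RAS, PI3K and STAT5 signaling, and the LT-HSC pool persists under tyrosine kinase inhibitors. c-KIT, encoded by Kit, is the receptor for stem cell factor, and normal LT-HSCs with little of it on the surface are the more primitive and more quiescent ones. Much of what follows concerns 2 response programs: immediate early genes, which growth factor and stress signals switch on within minutes through kinase cascades, and interferon-stimulated genes, which interferon receptors switch on through STAT proteins and which are constitutively active at a low level in stem cells.

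Gene counts came to 17653931 to 20749935 per CML c-KIT-low library and 14487608 to 31020852 per normal c-KIT-low library, the lowest being normal library 2 and the highest normal library 1. The normal libraries were far less alike than the CML libraries: each CML library had a mean correlation of 0.966 to 0.972 with the others of its group, and each normal library one of 0.748 to 0.786 (log2 (CPM + 1) over the genes tested, where CPM is counts scaled to a common library size with TMM factors). Genes with at least 10 counts numbered 13414 to 13849 in CML libraries and 9760 to 12716 in normal libraries (exact permutation p = 0.1, two-sided, the smallest p that 3 against 3 allows). Of the 14095 genes tested, 360 to 777 had no count in a CML library and 1245 to 3508 in a normal library, the highest being normal library 1. Among the genes tested, 589 had no count in any normal c-KIT-low library and 98 none in any CML c-KIT-low library. All 3 CML libraries carried Y-linked transcripts, at a summed 98.2 to 110.1 CPM, and no Xist, whereas all 3 normal libraries had 1.33 to 5.44 CPM of Y-linked transcripts and 0.0663, 4.05 and 3.2 CPM of Xist in libraries 1 to 3, the first from 2 counts. Disease and this difference in sex-linked transcripts cannot be told apart here, and the comparison was kept to autosomes. The human BCR-ABL1 transgene has no row of its own in the table, and Bcr (10.4, 9.44 and 11.7 CPM in CML, against 9.09, 28.6 and 1.28 CPM in normal libraries) and Abl1 (32, 45.2 and 57.6 CPM in CML, against 50.9, 89 and 3.65 CPM in normal libraries) overlapped between the groups, so the labels could not be checked on the oncogene.

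Transcripts of the surface markers used in the sort did not all follow the gates. Kit had 470.4, 494 and 565 CPM in CML libraries 1 to 3, against 380, 675 and 33.6 CPM in normal libraries 1 to 3. Slamf1, which encodes CD150, had 74.9, 56.3 and 52.5 CPM in CML libraries, against 0.0332, 60.5 and 60.6 CPM in normal libraries, so that normal library 1, with a single count, was the exception. Cd48 (21.2, 7.97 and 5.28 CPM in CML, against 0, 3.59 and 5.5 CPM in normal libraries) and Flt3 (31.3, 30.1 and 52.7 CPM in CML, against 0.0332, 37.4 and 8.76 CPM in normal libraries) were each detected in at least 5 of the 6 libraries although both were sorted against, and in CML library 3 Flt3 was as high as Slamf1. The T cell gene Cd3e had no count in any of the 6, and the groups overlapped in all of Kit, Slamf1, Cd48 and Flt3.

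At an adjusted p under 0.05 (edgeR's quasi-likelihood F test over all 4 groups, Benjamini-Hochberg over all genes tested), 12 autosomal genes differed between CML and normal c-KIT-low LT-HSCs (0.0851% of those tested): 8 rose in CML (0.0568%) and 4 fell (0.0284%). At an unadjusted p under 0.05 these were 835 genes (5.92%) and 1097 genes (7.78%). All 3 CML libraries lay above all 3 normal libraries in 1742 genes (12.4%) and below them in 1114 genes (7.9%), and these 2 shares are the background for every list described here. Against normal libraries 2 and 3 alone, an alternative chosen after the data were seen, they were 2462 genes (17.5%) and 1634 genes (11.6%). DESeq2 on the same genes called 248 higher (1.76%) and 232 lower (1.65%), among them all 12 calls of edgeR. All 12 calls kept their direction in each of the 21 fits run, but their significance leaned on single libraries: leaving out CML library 1 or CML library 2 left no call (758 and 780 genes higher, and 497 and 562 lower, at an unadjusted p under 0.05), leaving out normal library 1 gave 2 higher and none lower (895 lower at an unadjusted p under 0.05), and leaving out normal library 2 gave 303 higher and 581 lower. A fit of the 6 c-KIT-low libraries alone with edgeR called no gene, with 489 higher and 527 lower at an unadjusted p under 0.05.

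**Figure D1:**
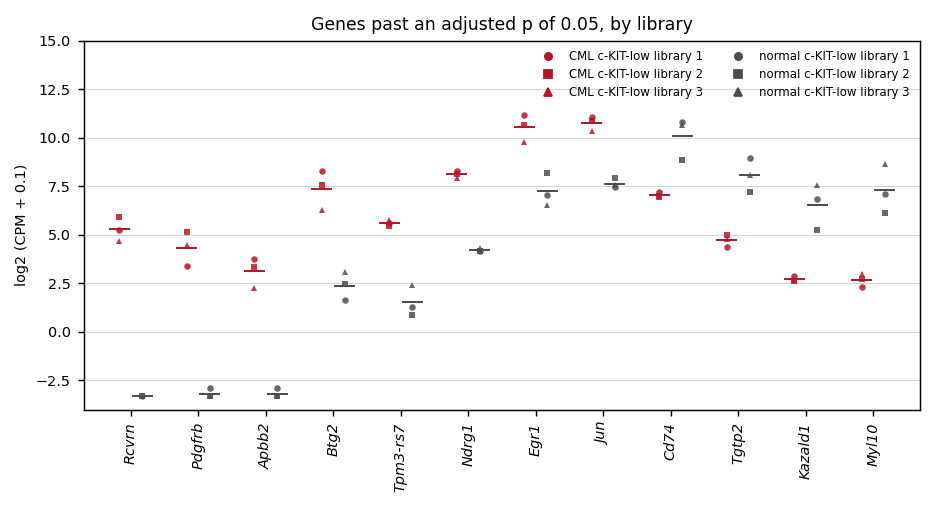
Level of each of the 12 autosomal genes past an adjusted p of 0.05 in the 6 c-KIT-low libraries, as log2 (CPM + 0.1), with CML in red on the left and normal in grey on the right of each gene; symbols mark the library and bars the mean of the log2 values. The groups do not overlap in any of the 12, and the normal points of Rcvrn at the bottom stand for 3 libraries with no count.

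Of the 8 genes that rose, 3 were immediate early genes. Jun, the AP-1 subunit whose product dimerizes with FOS proteins, had 2129, 1848 and 1303 CPM in CML libraries 1 to 3, against 176, 243 and 187 CPM in normal libraries 1 to 3. Every CML library was several times above every normal one, and the log2 fold change of Jun was 3.12 ± 0.40 (SE, adjusted p = 0.0246). Egr1, a zinc finger factor that holds LT-HSCs quiescent and in the niche in mice, had 2309.6, 1592 and 894 CPM in CML libraries, against 134, 286 and 94 CPM in normal libraries, a log2 fold change of 3.22 ± 0.50 (adjusted p = 0.0413). Btg2, an antiproliferative gene that p53 also induces, had 309.9, 190 and 77.3 CPM in CML libraries and 3.02, 5.38 and 8.25 CPM in normal libraries, a log2 fold change of 5.12 ± 0.78 (adjusted p = 0.0413). CML library 1 was the highest and CML library 3 the lowest of its group for all 3 genes.

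Ndrg1, a hypoxia- and stress-responsive gene, varied little within either group, with 313, 282 and 246 CPM in CML libraries, against 18, 18.1 and 19.8 CPM in normal libraries. Its log2 fold change was 3.91 ± 0.62 (adjusted p = 0.0413). 8.43% of the exonic bases of Ndrg1 are shared with Gm17035, and the library kit does not mark the strand. Rcvrn, which encodes the calcium sensor recoverin known from photoreceptors, had 38.4, 61 and 25.6 CPM in CML libraries and no count in the 3 normal libraries, which makes it at least 902-fold higher against a floor of 3 counts over the normal group (adjusted p = 0.0343). Pdgfrb, a PDGF receptor typical of mesenchymal and perivascular cells, had 10.3, 34.7 and 22 CPM in CML libraries, against a single count in normal library 1 and none in libraries 2 and 3 (ratio 1430, 95% counting interval 256 to 56530, adjusted p = 0.0343). Apbb2, an adaptor of the amyloid precursor protein, had 13.3, 10.2 and 4.65 CPM in CML libraries and again a single count in normal library 1 (ratio 619.6, 95% counting interval 111 to 24510, adjusted p = 0.0413). Intervals of this kind cover counting error only. Tpm3-rs7, a tropomyosin 3-related sequence, had 48.6, 44.3 and 53.8 CPM in CML libraries, against 2.35, 1.74 and 5.24 CPM in normal libraries (log2 fold change 3.97 ± 0.63, adjusted p = 0.0413). It resembles Tpm3, so reads that match both equally were given to no gene, and some of those counted may come from Tpm3.

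The 4 genes that fell were Tgtp2, Cd74, Kazald1 and Myl10. Tgtp2, an interferon-inducible GTPase, had 20.8, 32 and 27.5 CPM in CML libraries 1 to 3, against 498, 149 and 271 CPM in normal libraries 1 to 3. No CML library came near a normal one, and the log2 fold change was -3.52 ± 0.50 (adjusted p = 0.0343). Tgtp2 has a near-identical neighbor, Tgtp1, which had 11.1, 13.7 and 12.9 CPM in CML and 76.8, 35.5 and 59.7 CPM in normal libraries. Reads that match both copies equally were given to no gene, so both levels may be incomplete. Cd74, the invariant chain that escorts MHC class II, had 148, 127 and 124 CPM in CML libraries, against 1786, 467 and 1590 CPM in normal libraries (log2 fold change -3.27 ± 0.53, adjusted p = 0.0413). Kazald1, which encodes a secreted protein with a Kazal-type domain, had 7.21, 6.02 and 6.25 CPM in CML libraries, against 114, 37.6 and 192 CPM in normal libraries (log2 fold change -4.14 ± 0.65, adjusted p = 0.0413). Myl10, a myosin light chain, had 4.91, 6.46 and 7.86 CPM in CML libraries and 139, 68.7 and 399.6 CPM in normal libraries (log2 fold change -4.98 ± 0.78, adjusted p = 0.0413). CML libraries were tight in all 4 genes, and most of the spread was among normal libraries, with normal library 2 the closest to CML in Tgtp2, Cd74, Kazald1 and Myl10.

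AP-1 and immediate early genes as a group were the list with the largest share of members above normal. Of 30 genes listed, 27 were tested (Egr3 and Nr4a3 were under the filter, and Cyr61 was not matched), and all 3 CML libraries lay above all 3 normal libraries in 21 of them (77.8%, against 12.4% of all genes tested) and below in 1, Maff. The median log2 fold change over the 27 was 1.99, against -0.13 over all genes tested, and lay between 1.75 and 2.6 in every fit. Against normal libraries 2 and 3 alone, 23 of the 27 lay above and 1 below. Only Jun, Btg2 and Egr1 passed the test with edgeR, and DESeq2 called 13 of the 27 higher. Fos, the partner of Jun in AP-1, was the most abundant member, at 5495, 3560.3 and 2111 CPM in CML libraries, against 136, 277 and 416 CPM in normal libraries (log2 fold change 3.75 ± 0.74, adjusted p = 0.101). Zfp36, which encodes the mRNA-destabilizing protein tristetraprolin, had 1766, 1136 and 794 CPM in CML libraries, against 181, 137 and 227 CPM in normal libraries (adjusted p = 0.101). Atf3, a stress-induced member of the ATF family, had 28.2, 4.51 and 4.01 CPM in CML libraries and no count in normal libraries, at least 278-fold higher (adjusted p = 0.101).

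The other AP-1 subunits lay the same way with one exception. Junb had 1369, 909.6 and 772 CPM in CML libraries, against 332, 210.1 and 273 CPM in normal libraries, and Jund had 223, 151 and 133 CPM, against 54.5, 28.2 and 44.3 CPM. 52.6% of the exonic bases of Jund are shared with Gm11175. Fosb had 57.3, 30.1 and 13.7 CPM in CML libraries, against 0.0995, 1.13 and 6.2 CPM in normal libraries, whereas Fosl1 had 3.74, 2.04 and 0 CPM, against 26.1, 4.97 and 3.39 CPM, with normal library 1 the highest. 57.2% of the exonic bases of Fosl1 are shared with an overlapping gene. Klf2, a Krüppel-like factor of quiescent lymphocytes and endothelium, had 416, 203 and 55.3 CPM in CML libraries, against 12.9, 5.69 and 15.6 CPM in normal libraries, a wide range in CML that still cleared the normal group. Nr4a1, an orphan nuclear receptor that restrains stem cell proliferation in mice, had 299, 82.1 and 36.2 CPM in CML libraries, against 0.0332, 12.9 and 3.01 CPM in normal libraries. The summed level of the 27 members was 17510, 11730 and 7801 CPM in CML libraries 1 to 3, against 2091, 1914 and 2189 CPM in normal libraries 1 to 3. None of these sums overlap, and CML library 1 is again the highest and CML library 3 the lowest.

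**Figure D2:**
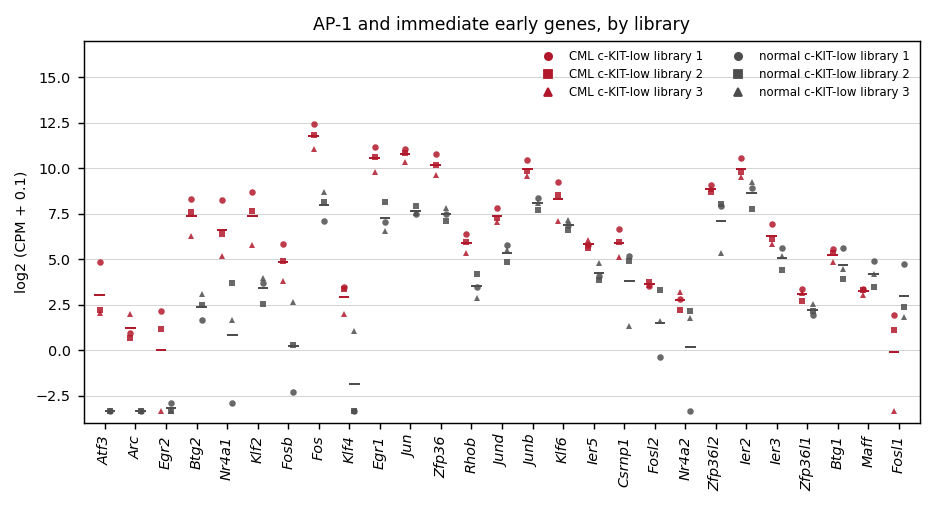
The 27 AP-1 and immediate early genes that passed the filter, ordered by log2 fold change, as log2 (CPM + 0.1) in CML c-KIT-low (red, left) and normal c-KIT-low (grey, right) libraries, with bars at the mean of the log2 values. In 21 of the 27 the lowest CML library is above the highest normal library, while Maff, Fosl1 and Btg1 at the right are not.

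Promoter sequence was examined as a description, in the window of 250 bases before to 50 bases after the start that RefSeq gives (GRCm38.p6). A window was found for 9961 of the 14095 genes tested. The cyclic AMP response element TGACGTCA, which CREB and ATF proteins bind and which reads the same on both strands, was in 3.29% of all windows, in 1 of the 22 immediate early windows, that of Btg2, and in 2 of the 39 windows of TNF and NF-kB response genes. The AP-1 motif, TGACTCA or TGAGTCA, was in 3.38% of all windows and in none of the 22 immediate early ones. The 250 bases before the start are shown for Btg2, as 1 of the 3 immediate early calls, and for Dusp1, the MAPK phosphatase with 3528, 2350.2 and 1430.3 CPM in CML libraries, against 741, 543 and 945 CPM in normal libraries, with the element in capitals. Btg2 lies on the minus strand (chr1:134079156-134079405), as does Dusp1 (chr17:26508473-26508722).
Btg2: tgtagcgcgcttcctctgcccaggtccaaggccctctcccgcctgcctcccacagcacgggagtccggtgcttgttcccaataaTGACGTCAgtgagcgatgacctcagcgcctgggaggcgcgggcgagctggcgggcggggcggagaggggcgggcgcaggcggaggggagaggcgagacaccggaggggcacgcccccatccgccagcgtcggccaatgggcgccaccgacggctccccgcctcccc
Dusp1: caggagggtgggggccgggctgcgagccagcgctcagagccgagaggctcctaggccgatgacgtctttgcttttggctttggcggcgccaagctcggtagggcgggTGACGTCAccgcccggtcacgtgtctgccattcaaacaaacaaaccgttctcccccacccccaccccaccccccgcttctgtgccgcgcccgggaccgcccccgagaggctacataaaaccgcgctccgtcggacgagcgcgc

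Interferon-stimulated genes lay in the opposite direction. Of 67 tested, 30 had all 3 CML libraries below all 3 normal libraries (44.8%, against 7.9% of all genes tested) and none had all 3 above. Against normal libraries 2 and 3 alone, 32 lay below and 2 above. The median log2 fold change over the 67 was -1.18, 25 members were lower and none higher at an unadjusted p under 0.05, and 1 member, Tgtp2, passed the test with edgeR, while DESeq2 called 12 lower. The summed level of the list was 4494, 5148 and 4805 CPM in CML libraries 1 to 3, against 13360, 6497 and 16550 CPM in normal libraries 1 to 3. CML libraries were within a narrow band below the normal ones, of which library 2 was the nearest, and the median of the list lay between -1.34 and -0.822 in every fit.

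Rtp4, a receptor-transporting protein that limits interferon responses in mice, had 16.4, 20.9 and 20.9 CPM in CML libraries, against 146, 56.6 and 189 CPM in normal libraries (log2 fold change -2.75 ± 0.51, adjusted p = 0.0986). Igtp, an immunity-related GTPase, had 53.7, 74.9 and 68.8 CPM in CML libraries, against 549, 206 and 271 CPM in normal libraries (log2 fold change -2.38 ± 0.47, adjusted p = 0.102). The groups were well apart in both genes, though neither passed the threshold. Of the exonic bases, 13.9% of Rtp4 and 8.01% of Igtp are shared with overlapping genes. Of the ubiquitin-like modifier Isg15 there were 5.85, 11.2 and 8.36 CPM in CML libraries, against 37.4, 21.6 and 85.2 CPM in normal libraries, and of its protease Usp18 17.7, 29 and 15.2 CPM, against 67.2, 47.9 and 88.9 CPM. The RNA-binding effector Ifit1 had 10.5, 20.8 and 7.86 CPM in CML libraries, against 44.4, 34.2 and 49.9 CPM in normal libraries, and the guanylate-binding Gbp4 had 2.92, 4.2 and 3.72 CPM, against 94.6, 33.4 and 16.6 CPM. These 4 genes also did not overlap between the groups.

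Among the transcription factors of the pathway, Irf7 and Irf9 lay the same way. Irf7 had 26.1, 33.2 and 30.4 CPM in CML libraries, against 177, 47.9 and 90.1 CPM in normal libraries, and Irf9, the DNA-binding subunit of a STAT complex, had 69.3, 80.2 and 82.9 CPM, against 289, 189 and 114 CPM. Stat2 (31.3, 27.2 and 41.7 CPM in CML, against 27.7, 23.2 and 6.97 CPM in normal libraries) overlapped between the groups. So did the receptor chains Ifnar1 (73.3, 72.9 and 84.3 CPM in CML, against 92.2, 77 and 6.78 CPM) and Ifnar2 (91.9, 76.5 and 72.5 CPM in CML, against 90.6, 43.2 and 104 CPM). Members that overlapped also included abundant ones, such as Ifitm3 at 764, 867 and 673 CPM in CML libraries, against 2127, 780.3 and 4061 CPM in normal libraries, where normal library 2 lay within the CML range.

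**Figure D3:**
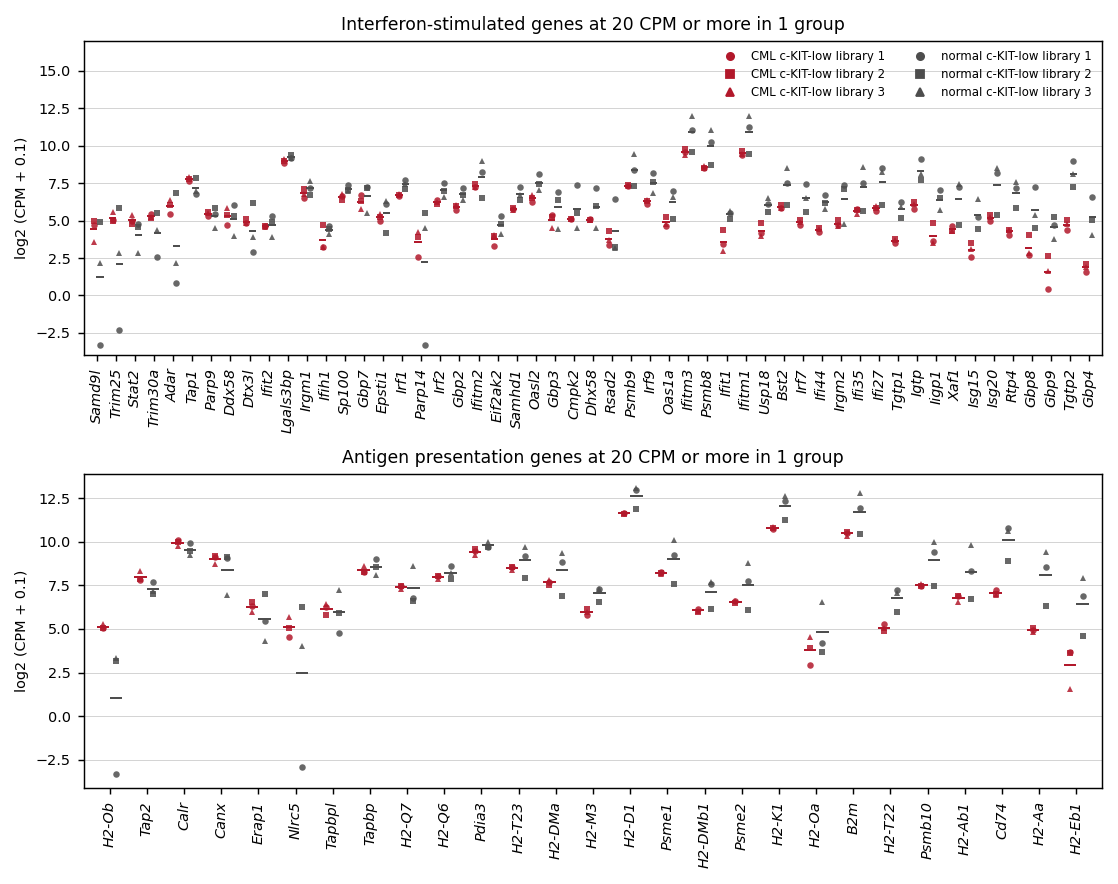
Interferon-stimulated genes (top, 53 drawn) and genes of antigen presentation (bottom, 27 drawn) with a mean of 20 CPM or more in either group, ordered by log2 fold change, as log2 (CPM + 0.1) in CML c-KIT-low (red, left) and normal c-KIT-low (grey, right) libraries, with bars at the mean of the log2 values. Towards the right the CML points lie below the normal ones, as for Tgtp2 and Rtp4, where normal library 2 (squares) is the normal library nearest to CML.

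The interferon-stimulated response element (ISRE), searched as GAAANNGAA on both strands, was in 29 of the 50 interferon-stimulated windows found (58.0%) and in 7.16% of all 9961 windows. The palindromic STAT motif TTCNNNGAA was in 17 of the 50 (34.0%), against 6.83% of all. Within the list, members with and without the ISRE lay alike: 12 of 29 with it (41.4%) and 9 of 21 without it (42.9%) had all CML libraries below all normal ones. Outside the list, 684 tested genes held an ISRE in the window, and 8.77% of them had all CML libraries below, near the background. The upstream bases are shown for 4 members whose groups did not overlap: Tgtp2 (minus strand, chr11:49064213-49064462), Igtp (plus strand, chr11:58199306-58199555), Isg15 (minus strand, chr4:156200819-156201068) and Ifit1 (plus strand, chr19:34640639-34640888). Capitals mark every match to the ISRE or the STAT motif, and the runs of capitals in Isg15 and the first run in Ifit1 are overlapping ISRE matches. In Tgtp2 and Igtp a STAT match is followed by an ISRE match with 2 bases between them.
Tgtp2: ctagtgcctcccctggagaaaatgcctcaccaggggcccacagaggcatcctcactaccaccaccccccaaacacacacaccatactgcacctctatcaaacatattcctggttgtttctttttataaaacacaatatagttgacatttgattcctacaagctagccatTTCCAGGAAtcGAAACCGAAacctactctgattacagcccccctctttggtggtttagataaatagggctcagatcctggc
Igtp: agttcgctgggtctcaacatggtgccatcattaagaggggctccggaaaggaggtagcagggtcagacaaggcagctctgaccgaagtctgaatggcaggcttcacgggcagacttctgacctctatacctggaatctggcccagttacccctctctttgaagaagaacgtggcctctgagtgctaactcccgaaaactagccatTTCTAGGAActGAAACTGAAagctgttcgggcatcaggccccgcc
Isg15: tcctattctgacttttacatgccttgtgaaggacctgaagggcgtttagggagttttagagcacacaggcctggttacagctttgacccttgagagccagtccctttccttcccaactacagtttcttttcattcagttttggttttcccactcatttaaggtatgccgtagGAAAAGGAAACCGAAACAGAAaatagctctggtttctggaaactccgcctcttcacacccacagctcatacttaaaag
Ifit1: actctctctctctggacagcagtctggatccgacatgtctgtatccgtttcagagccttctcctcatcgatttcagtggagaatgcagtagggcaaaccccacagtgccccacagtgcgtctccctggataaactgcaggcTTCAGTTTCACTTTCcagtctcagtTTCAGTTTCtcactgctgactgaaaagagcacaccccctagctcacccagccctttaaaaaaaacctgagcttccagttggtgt

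Many antigen presentation genes are induced by interferon as well, and of these lists Cd74 alone was called. In the MHC class II list, 4 of 10 members tested lay wholly below normal and 1, H2-Ob, wholly above, and the list's median was -1.68 on the log2 scale. Besides Cd74, the class II alpha chain gene H2-Aa had 30.4, 32.7 and 28.1 CPM in CML libraries, against 378, 80.6 and 679.5 CPM in normal libraries (log2 fold change -3.64 ± 0.70, adjusted p = 0.101). The beta chain gene H2-Eb1 had 12.6, 12 and 2.83 CPM in CML libraries, against 116, 24.3 and 239 CPM in normal libraries, while H2-Ab1, at 118, 119.8 and 94.2 CPM in CML and 324, 105 and 883 CPM in normal libraries, overlapped through normal library 2. In the MHC class I list, 7 of 23 members lay wholly below (30.4%, against 7.9%) and 1, the peptide transporter Tap2, wholly above (4.35%, against 12.4%). The median of that list was -0.60, with no call (9 lower at an unadjusted p under 0.05). The heavy chain H2-K1 had 1731, 1786 and 1844 CPM in CML libraries, against 5227, 2388 and 6305 CPM in normal libraries, and the nonclassical H2-T22 had 38.4, 29 and 33.6 CPM, against 148, 63.8 and 133 CPM. MHC genes have near-identical copies. Reads of H2-T22 that match another copy equally were given to no gene, so its level may be incomplete. Of the exonic bases, 29.4% of H2-T22 and 18.5% of Tap2 are shared with overlapping genes.

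TNF and NF-kB response genes lay in both directions. Of 63 tested, 17 lay wholly above normal (27%) and 5 wholly below (7.94%), the median log2 fold change was 0.55, and none passed the test with edgeR (10 higher and 6 lower at an unadjusted p under 0.05, and 4 higher and 2 lower with DESeq2). Nfkb1, which encodes the p105/p50 subunit, had 406, 332 and 368 CPM in CML libraries, against 82.4, 129 and 107 CPM in normal libraries (log2 fold change 1.80 ± 0.40, adjusted p = 0.154). Of the other subunits, Rel had 1.17, 3.38 and 6.76 CPM in CML libraries, against 0.0332, 0 and 0.767 CPM in normal libraries, all above but at low levels. Rela (251, 208 and 273 CPM in CML, against 471, 179 and 108 CPM), Relb (17, 19.5 and 16.1 CPM in CML, against 57.1, 41.6 and 16.8 CPM) and Nfkb2 (33.4, 29.2 and 34.5 CPM in CML, against 106, 50.1 and 10.9 CPM) overlapped between the groups.

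The inhibitors differed among themselves. Nfkbiz had 38.6, 19 and 22.6 CPM in CML libraries, against 0.0332, 2.2 and 5.95 CPM in normal libraries, and the deubiquitinase gene Tnfaip3 had 40.6, 32.9 and 25.3 CPM, against 4.28, 24.6 and 1.47 CPM. Nfkbia, the classical IkB-alpha, overlapped, with 231, 179.8 and 211 CPM in CML and 481, 146 and 734 CPM in normal libraries. The early activation marker Cd69 had 61.2, 25.7 and 11.4 CPM in CML libraries and no count in normal libraries, at least 731-fold higher (adjusted p = 0.153). In contrast, Traf1, a TNF receptor adaptor, had 19.7, 15.9 and 16.5 CPM in CML libraries, against 216, 62.7 and 57.3 CPM in normal libraries (log2 fold change -2.69 ± 0.59, adjusted p = 0.154), and the lymphotoxin gene Ltb, from the list of cytokines, had 132, 125 and 255 CPM, against 1196, 314 and 1118 CPM (adjusted p = 0.127). Il6 (2.88, 1.3 and 4.9 CPM) and Tnf (0.819, 0.0433 and 1.65 CPM) were detected in CML libraries alone and at low levels.

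Among JAK kinases, STATs and SOCS inhibitors, 6 of 27 lay wholly above normal (22.2%) and 3 wholly below (11.1%), the median log2 fold change over them was 0.16, which changed sign in 1 of 20 other fits, and none was called (3 higher and 1 lower at an unadjusted p under 0.05, and 1 and 1 with DESeq2). The 2 feedback inhibitors that led the list lay in opposite directions. Socs3, which shuts off gp130 and G-CSF receptor signaling to STAT3, had 327, 203 and 164 CPM in CML libraries, against 37.8, 3.69 and 1.73 CPM in normal libraries (log2 fold change 4.0 ± 1.0, adjusted p = 0.189). Socs2, a STAT5 target that restrains growth hormone and cytokine receptors, had 14.4, 18.1 and 21.7 CPM in CML libraries, against 175, 44.2 and 90.2 CPM in normal libraries (log2 fold change -2.51 ± 0.63, adjusted p = 0.189). Stat3 had 333, 338 and 413 CPM in CML libraries, against 112, 317 and 46.6 CPM in normal libraries, Stat5a had 135, 162 and 183 CPM, against 103, 120.5 and 15.4 CPM, and Stat6 had 239, 233 and 285 CPM, against 166, 206 and 58.4 CPM. For all 3 the CML libraries were above, but normal library 2 lay close to them and the unadjusted p was 0.0561, 0.136 and 0.0828. Stat5b overlapped, at 107, 123 and 151 CPM in CML and 109.8, 162 and 13.5 CPM in normal libraries.

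STAT5 and STAT3 target genes had 7 of 27 wholly above normal (25.9%, against 12.4% of all genes tested) and 2 wholly below (7.41%, against 7.9%). Their median was 0.16, with no call with edgeR. The antiapoptotic Mcl1 had 325, 243 and 189.8 CPM in CML libraries, against 87.6, 107 and 54.5 CPM in normal libraries, whereas cyclin D2 (Ccnd2) had 354, 295 and 327 CPM, against 873, 424 and 1332 CPM. Of the receptors, Tnfrsf21, which encodes death receptor 6, had 105, 106 and 144 CPM in CML libraries, against 88.1, 81.2 and 13.7 CPM in normal libraries. Il10ra (32.1, 41.4 and 22.6 CPM in CML, against 41.8, 8.81 and 5.95 CPM), Il10rb (33.8, 32.1 and 30.9 CPM in CML, against 25.5, 42.4 and 45.6 CPM) and Csf3r (59.5, 57.8 and 111 CPM in CML, against 42.3, 73.5 and 12.9 CPM) overlapped, as did the cytokine gene Csf1 (12.9, 7.76 and 25.7 CPM in CML, against 0.0332, 17.6 and 5.37 CPM).

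Among signal regulators downstream of KIT and BCR-ABL, no gene was called with edgeR. Dok2, an adaptor that dampens RAS signaling, had 117, 88.8 and 105 CPM in CML libraries, against 308, 277 and 388 CPM in normal libraries (log2 fold change -1.65 ± 0.42, adjusted p = 0.192). Grb2, which links receptors and BCR-ABL to RAS, had 100.2, 85.1 and 117 CPM in CML libraries, against 37.8, 57.6 and 52.4 CPM in normal libraries (adjusted p = 0.243). For PI3K, the catalytic subunit gene Pik3cb had 21.7, 22.9 and 19.8 CPM in CML libraries, against 0, 0.256 and 0.128 CPM in normal libraries, and the regulatory Pik3r1 had 63.5, 66 and 63.2 CPM, against 204, 164 and 125 CPM, so the 2 lay in opposite directions. The ERK phosphatase gene Dusp6 had 78.7, 60.6 and 54.9 CPM in CML libraries, against 38.7, 12.9 and 22.4 CPM in normal libraries, and the Sprouty gene Spry1, an inhibitor of receptor tyrosine kinase signaling, had 127, 89.8 and 64.5 CPM, against 0.0332, 38.3 and 20.1 CPM. In the KIT list 6 of 22 lay wholly above normal (27.3%) and 2 wholly below (9.09%), with 3 higher and 2 lower at an unadjusted p under 0.05. In the BCR and ABL list 2 of 25 lay wholly above (8%) and 3 wholly below (12%), near the shares of all genes tested. In the list of MAPK phosphatases, Sprouty and SPRED, 6 of 22 lay wholly above (27.3%, against 12.4% of all genes tested) and 1 wholly below (4.55%, against 7.9%). At an unadjusted p under 0.05, 5 were higher and none lower. Yet 12 of the 22 log2 fold changes were below 0, and the list's median of -0.10 changed sign in 5 of 20 other fits. 24.4% of the exonic bases of Spry1 are shared with an overlapping gene.

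HSC identity and self-renewal genes had a larger share wholly below normal than all genes tested. Of 53 tested, 13 lay wholly below normal (24.5%) and 6 wholly above (11.3%), the median was -0.39, and none was called with edgeR (1 higher and 12 lower at an unadjusted p under 0.05). Tcf15, a factor of the most quiescent mouse LT-HSCs, had 19.6, 16.4 and 28.7 CPM in CML libraries, against 227, 41 and 214 CPM in normal libraries (log2 fold change -2.90 ± 0.60, adjusted p = 0.127). Pdzk1ip1, a mouse stem cell marker gene, had 283, 280.1 and 333 CPM in CML libraries, against 1436, 405 and 2603 CPM in normal libraries. Mllt3, a maintenance factor of human HSCs, had 65.3, 63.1 and 69.2 CPM in CML libraries, against 165, 131 and 159 CPM in normal libraries, and the homeobox gene Hoxa9 had 45.5, 46.1 and 57.2 CPM, against 183, 72.6 and 95.9 CPM. Trib3, a pseudokinase gene, had 28.9, 34.9 and 33.7 CPM in CML libraries, against 103, 67.3 and 89.9 CPM in normal libraries, and the groups did not overlap. Gfi1, a repressor that keeps HSCs quiescent, overlapped by 1 library, at 30.6, 14.6 and 50.6 CPM in CML and 140.4, 44.5 and 59.1 CPM in normal libraries.

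The lipoprotein receptor gene Vldlr was the sharp exception in that list, with 173, 183 and 191 CPM in CML libraries, against 0, 0.102 and 2.11 CPM in normal libraries (log2 fold change 8.0 ± 1.49, adjusted p = 0.0986). Surface markers split as well. Ly6a, which encodes Sca-1 and is itself interferon-inducible, had 111, 153 and 128 CPM in CML libraries, against 408, 186 and 856 CPM in normal libraries (log2 fold change -1.89 ± 0.55, adjusted p = 0.221), and Procr, which encodes EPCR, had 74.3, 64 and 93 CPM, against 333, 105 and 240.1 CPM. On the other side, Cd34 had 257, 270.1 and 365 CPM in CML libraries, against 62, 173 and 84.5 CPM in normal libraries, and the megakaryocyte integrin gene Itga2b, which encodes CD41, had 2067, 2081 and 1801 CPM, against 75.8, 968 and 178 CPM (adjusted p = 0.244). Sca-1 was part of the sort and EPCR and CD34 were not.

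Quiescence genes did not form 1 direction. Of 34 CDK inhibitors and quiescence genes tested, 10 lay wholly above normal (29.4%) and 3 wholly below (8.82%), with Btg2 and Egr1 the 2 calls. Cdkn1c, the CDK inhibitor p57 that keeps mouse HSCs out of cycle, had 14.7, 17.6 and 36.1 CPM in CML libraries, against 215, 69.2 and 111 CPM in normal libraries (log2 fold change -2.53 ± 0.54, adjusted p = 0.142), with 30.6% of its exonic bases shared with Gm44732. Necdin (Ndn), another growth suppressor of HSCs, had 56.3, 58.7 and 22.5 CPM in CML libraries, against 252, 133 and 223 CPM in normal libraries (adjusted p = 0.154).

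G2/M genes and E2F targets had a larger share wholly above normal than all genes tested, with no call. Of G2/M and mitosis genes, 17 of 67 lay wholly above (25.4%) and 1 wholly below, with a median of 0.98, and of E2F targets of DNA replication 17 of 60 (28.3%) and 1, with a median of 0.49. Without normal library 1 these medians were 0.49 and 0.28. None was called with edgeR or DESeq2, and 6 and 4 members were higher at an unadjusted p under 0.05. The spindle factor Tpx2 had 124, 109.8 and 81.5 CPM in CML libraries, against 44.5, 55 and 41.4 CPM in normal libraries (log2 fold change 1.16 ± 0.39), and Tacc3 had 203, 180.5 and 158 CPM, against 44.4, 117 and 88 CPM. Among E2F targets, Tmpo, a nuclear lamina gene, had 306, 271 and 244 CPM in CML libraries, against 109, 190.2 and 81 CPM in normal libraries, and the polymerase gene Pold1 had 321, 314 and 391 CPM, against 59.1, 292 and 48.9 CPM, with normal library 2 close to CML. Cdk6, the G1 kinase that decides when an HSC leaves quiescence, had 132, 118 and 82.2 CPM in CML libraries, against 5.34, 45.1 and 22.1 CPM in normal libraries (log2 fold change 2.20 ± 0.64, adjusted p = 0.221). In its list of G1 cyclins and their kinases, Cdk6 was the 1 of 15 wholly above (6.67%, against 12.4% of all genes tested). Ccnd2 was the 1 wholly below (6.67%, against 7.9%), and the list's median of -0.10 changed sign in 4 of 20 other fits. Myc overlapped between the groups, at 424, 436 and 524 CPM in CML and 434, 262 and 274 CPM in normal libraries. The summed level of the G2/M list also overlapped, at 5689, 5033 and 4036 CPM in CML libraries and 1987, 3403 and 5638 CPM in normal libraries, the highest normal value being that of library 3.

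Of the Hedgehog list, 12 of the 17 members tested lay wholly above normal (70.6%, against 12.4% of all genes tested), none wholly below, and none was called with edgeR (5 higher at an unadjusted p under 0.05, and 5 with DESeq2). The list's median was 1.37 on the log2 scale. Of the 17, 7, 4 and 4 had no count in normal libraries 1 to 3, against 2, 0 and 1 in CML libraries 1 to 3. Such members can pass the filter through the groups where they are high, so the share is not independent of detection. Core members were few among the 12 above normal. Smo, the signal transducer, had 100, 109 and 101 CPM in CML libraries, against 57.8, 55.3 and 6.71 CPM in normal libraries, the coreceptor Boc had 7.17, 5.55 and 6.25 CPM, against 0, 0 and 0.576 CPM, and the ciliary kinesin gene Kif7 had 6.08, 8.49 and 9.04 CPM, against 0.0995, 2.2 and 0 CPM, with 20.3% of the exonic bases of Kif7 shared with an overlapping gene. The receptor gene Ptch1, which is also the pathway's standard target, overlapped, at 11.4, 16 and 13.3 CPM in CML and 0.0663, 46.5 and 1.34 CPM in normal libraries. The target and effector genes Gli1, Gli2 and Gli3 and the ligand genes Shh, Ihh and Dhh were all under the filter on low counts. The members with the smallest p in this list, Vldlr and Cdk6, also belong to other lists, as does Thy1. Beta-catenin (Ctnnb1), of the Wnt pathway, had 336, 358 and 352 CPM in CML libraries, against 153, 339 and 75.8 CPM in normal libraries, which overlapped through normal library 2, and 15.1% of its exonic bases are shared with Ulk4.

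Genes of energy metabolism and protein synthesis had medians below that of all genes tested. The median over the 74 OXPHOS nuclear subunits was -1.06 on the log2 scale, that over 76 mitochondrial ribosomal proteins -1.03 and that over 77 cytosolic ribosomal proteins -0.78. Of these, 3, 7 and 4 members lay wholly below normal (4.05%, 9.21% and 5.19%, against 7.9% of all genes), none lay wholly above and none was called with edgeR. At an unadjusted p under 0.05, 18 of 74, 27 of 76 and 4 of 77 were lower and none higher, and DESeq2 called 1, 3 and 0 lower. The summed OXPHOS level was 15910, 15830 and 14690 CPM in CML libraries, against 25470, 12280 and 48170 CPM in normal libraries, so that normal library 2 was below and normal libraries 1 and 3 were above all CML libraries. Ndufs3, a complex I subunit, had 51.7, 55.3 and 55.7 CPM in CML libraries, against 139, 77 and 291 CPM in normal libraries, and Sdhb of complex II had 281, 291 and 251 CPM, against 654, 326 and 1291 CPM. These are short transcripts, with a median exonic length of 1814 bases for the OXPHOS list, against 3944 bases for all genes tested, and with each library's trend on length taken out the medians of the 3 lists were -0.25, -0.50 and -0.08. Reads at several places of the genome, which were given to no gene, made up 38.0% to 39.4% of entries in CML libraries and 34.3% to 52.3% in normal libraries, and ribosomal protein genes have many processed copies.

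Antioxidant genes had a median of -0.92 over 44, with 6 wholly below normal (13.6%, against 7.9% of all genes tested) and none above. None was called with edgeR or DESeq2 (12 lower at an unadjusted p under 0.05). In normal library 2 their summed level, 5424 CPM, was below that of all CML libraries (6580, 6546 and 7003 CPM). The glutathione transferase Gstm1 had 239.5, 207 and 246 CPM in CML libraries, against 674, 262 and 1206 CPM in normal libraries. Glycolysis genes had a median of -0.06, which changed sign in 6 of 20 other fits, with Ldhb, the lactate dehydrogenase subunit of oxidative tissues, at 107, 124 and 150 CPM in CML libraries, against 823, 154 and 982 CPM in normal libraries. Of 59 fatty acid genes, 5 lay wholly above normal (8.47%, against 12.4% of all genes tested) and 8 wholly below (13.6%, against 7.9%), and the list's median of -0.37 changed sign with limma-voom. The peroxisomal oxidase gene Acox3 had 34.5, 28.9 and 23.8 CPM in CML libraries, against 0.0332, 0 and 0.959 CPM in normal libraries, whereas the mitochondrial isomerase gene Eci1 had 100, 89.2 and 97 CPM, against 242, 116 and 546 CPM.

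**Figure D4:**
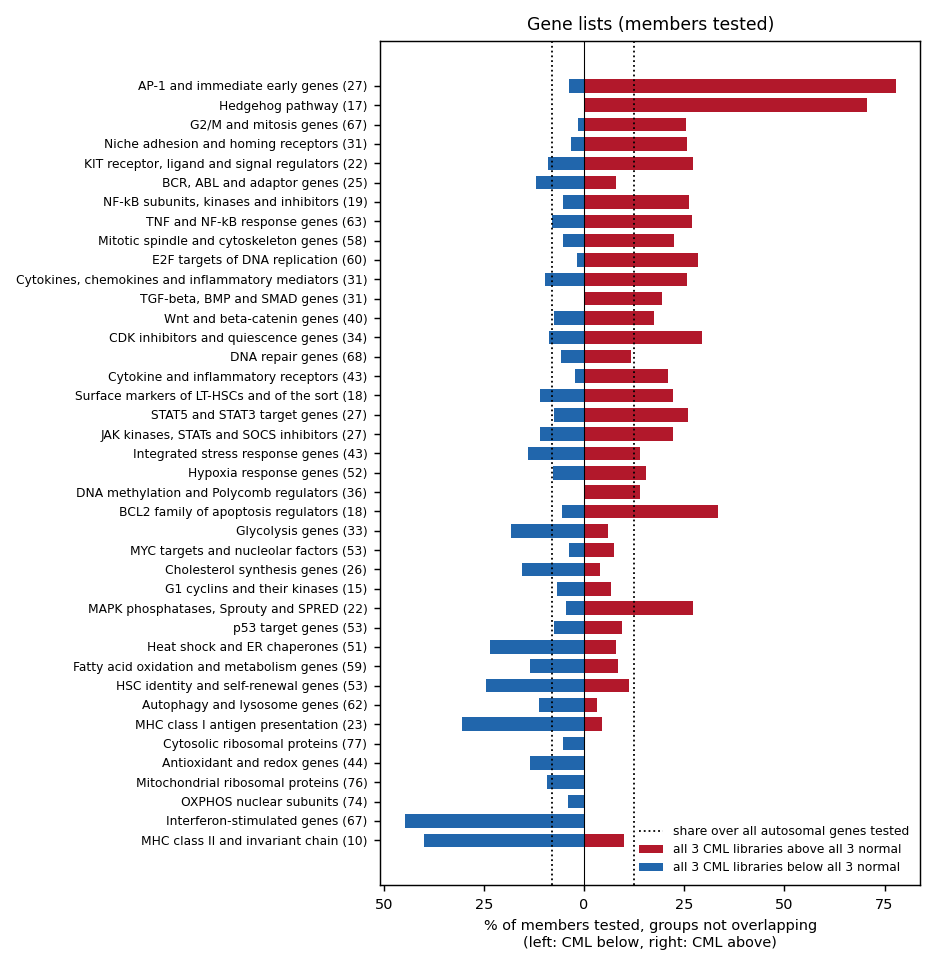
For each of the 40 process lists, ordered by median log2 fold change with the highest at the top, the share of members tested in which all 3 CML c-KIT-low libraries lay above (red, right) or below (blue, left) all 3 normal c-KIT-low libraries; dotted lines mark the same shares over all 14095 genes tested, 12.4% above and 7.9% below. The AP-1 and Hedgehog lists reach farthest to the right and the interferon-stimulated and MHC lists farthest to the left, while OXPHOS and ribosomal lists stay near or inside the dotted lines.

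Among uncalled protein-coding genes with at least 20 CPM in the higher group, some were detected in CML alone. Ccl8, a monocyte chemoattractant gene, had 2.22, 10.1 and 57.5 CPM in CML libraries and St8sia6, a sialyltransferase gene, had 27.4, 26.4 and 13.9 CPM, with no count of either in normal libraries (at least 496-fold and 493-fold higher, adjusted p = 0.101 and 0.101). Epop, a Polycomb-associated gene, had 24.7, 21.5 and 25.1 CPM in CML libraries, against 0.0663, 0 and 1.66 CPM in normal libraries. In the other direction, the immune GTPase genes Gimap4 (1.68, 5.16 and 6.55 CPM in CML, against 149, 36.7 and 102 CPM in normal libraries) and Gimap6 (216, 207 and 269 CPM in CML, against 1458, 489 and 1065 CPM, adjusted p = 0.101) lay wholly below. So did Mfap2, which encodes a microfibril protein (6.94, 8.71 and 10.3 CPM in CML, against 123, 29.6 and 121 CPM, adjusted p = 0.101), and the receptor-modifying gene Ramp2 (1.25, 3.34 and 1.94 CPM in CML, against 129, 25.7 and 146 CPM), although 33.4% of the exonic bases of Ramp2 are shared with Vps25.

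Markers of other cell types were not at 0 and some differed with the groups, and their part in the results above was not tested. In the B-lineage list, immunoglobulin transcripts stood out: Ighm had 5407, 3608 and 1082 CPM in CML libraries, against 0.564, 116 and 13.3 CPM in normal libraries (log2 fold change 6.28 ± 1.61, adjusted p = 0.199), and Igkc had 4842, 1718 and 599 CPM, against 32.4, 7.23 and 2.17 CPM. The plasma cell gene Jchain had 97.9, 75 and 42.7 CPM in CML libraries, against 0.0332, 0 and 7.35 CPM in normal libraries. The B cell factor gene Ebf1 (0, 0.0433 and 0.0422 CPM in CML, against 0.0663, 17.7 and 0.0639 CPM in normal libraries) did not follow them and was highest in normal library 2. Over 12 members, the summed B-lineage level was 10540, 5565 and 1882 CPM in CML libraries, against 531, 374 and 428 CPM in normal libraries. Of the 12, 3 lay wholly above normal and 3 wholly below, against 12.4% and 7.9% of all genes tested. The list's median log2 fold change was -1.68. CML libraries had the same order in their immediate early sums, and also in their G2/M sums (5689, 5033 and 4036 CPM). A link between these levels was not tested, and an order of 3 libraries cannot decide it.

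Mast cell and basophil genes had 8 of 16 members wholly above normal, against 12.4% of all genes tested, and none below. None was called with edgeR (6 higher and 1 lower at an unadjusted p under 0.05, and 4 higher with DESeq2). Of the 16, 7, 6 and 6 had no count in normal libraries 1 to 3, against 0, 2 and 0 in CML libraries 1 to 3. Such members can pass the filter through the groups where they are high, so the share above is not independent of detection. Cpa3, a mast cell protease, had 52.4, 5.29 and 66.5 CPM in CML libraries and no count in normal libraries (at least 914-fold higher, adjusted p = 0.0986), and Hdc, which makes histamine, had 118, 3.34 and 79 CPM in CML libraries, against 3 counts in all in normal libraries 1 and 2 together and none in library 3 (ratio 1492, 95% counting interval 510.1 to 7235). CML library 2 was far below CML libraries 1 and 3 in both. The summed level of the list overlapped between the groups, at 2770, 1880 and 2025 CPM in CML and 3334, 1534 and 4835 CPM in normal libraries. Neutrophil granule genes were highest in normal library 3, as in Ngp, which had 53.6, 5.94 and 10.2 CPM in CML libraries, against 24.5, 2.77 and 1529 CPM in normal libraries, and the list's sum was 2550, 737 and 797 CPM in CML and 1478, 557 and 8203 CPM in normal libraries. Ly6g had 210 counts in normal library 3 and 0 to 2 counts in the other 5. The erythroid list had sums of 1431, 1397 and 1458 CPM in CML and 3325, 1841 and 5728 CPM in normal libraries. Of its 19 members 3 lay wholly below (15.8%, against 7.9% of all genes tested) and none wholly above, with a median of -1.79 (-0.88 with length offsets). None of its members was called with edgeR (7 lower at an unadjusted p under 0.05, and 2 with DESeq2). The T and NK list had Cd3e at 0 in all 6 libraries and sums of 381, 373 and 353 CPM in CML, against 163, 178 and 871 CPM in normal libraries. In sorted bulk RNA, fewer cells of a type and less RNA per cell cannot be told apart.

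The c-KIT-high fraction was compared in the same fit with its own 6 libraries. These were shallower, with 7753878 to 13213021 gene counts each. Of their entries 24.4% to 37.1% were on genes, against 43.9% to 60.6% in c-KIT-low libraries. Y-linked transcripts were again higher in CML (99.8 to 249 CPM, no Xist) than in normal libraries (18.85 to 35.1 CPM, with 9.83 to 175.9 CPM of Xist). The part of these differences in the contrasts between the fractions was not tested. There 2 autosomal genes rose (0.0142%) and none fell in CML with edgeR (442 lower at an unadjusted p under 0.05, or 3.14%, and 73 with DESeq2, or 0.518%). Both were immediate early genes. Junb had 644, 403 and 312 CPM in CML c-KIT-high libraries 1 to 3, against 30.6, 48.2 and 59.1 CPM in normal c-KIT-high libraries 1 to 3 (log2 fold change 3.30 ± 0.44, adjusted p = 0.0324), and Zfp36 had 1102, 693 and 444 CPM, against 19.4, 48.2 and 59.5 CPM (log2 fold change 4.14 ± 0.56, adjusted p = 0.0324). No gene passed the test of the difference in CML change between c-KIT-low and c-KIT-high with edgeR, 1613 (11.4%) had an unadjusted p under 0.05, and DESeq2 called 219 (1.55%). Jun was above normal in both fractions, with 978, 1520.4 and 949 CPM in CML c-KIT-high libraries, against 384, 285 and 274 CPM in normal c-KIT-high libraries, and the change in c-KIT-low minus that in c-KIT-high was 1.25 ± 0.52 on the log2 scale (adjusted p = 0.405). Fos likewise had 4952, 2383 and 1248 CPM in CML c-KIT-high libraries, against 98.7, 53.6 and 216 CPM in normal c-KIT-high libraries. Rcvrn, at 24.4, 43.9 and 17 CPM in CML c-KIT-high and 0, 0 and 0.255 CPM in normal c-KIT-high libraries, had the same pattern in both fractions, and so did Ccl8, at 54.8, 34.3 and 71.2 CPM in CML c-KIT-high libraries and no count in normal c-KIT-high libraries. Among the called genes that rose in c-KIT-low, Apbb2 alone overlapped between the c-KIT-high groups. It had 7.5, 22.3 and 9.11 CPM in CML c-KIT-high, against 11.4, 7.46 and 4.08 CPM in normal c-KIT-high libraries (difference of the log2 changes 8.01 ± 1.61, adjusted p = 0.294). The median of the immediate early list was 1.99 in c-KIT-low, against 1.37 in c-KIT-high.

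For Kazald1, Tgtp2, Cd74 and Myl10, which fell in c-KIT-low LT-HSCs, the groups were closer in c-KIT-high LT-HSCs, without a difference between the fractions that passed the test. Kazald1 had 16.9, 14.6 and 9.88 CPM in CML c-KIT-high libraries, against 24, 13.7 and 17.8 CPM in normal c-KIT-high libraries (difference of the log2 changes -3.72 ± 0.84, adjusted p = 0.294). Tgtp2 had 33.7, 32.5 and 21.3 CPM in CML c-KIT-high libraries, against 102, 49.7 and 76.4 CPM in normal c-KIT-high libraries (difference -2.13 ± 0.65, adjusted p = 0.328). Cd74 had 42.2, 22.2 and 33.6 CPM in CML c-KIT-high libraries, against 94.7, 50.5 and 46.8 CPM in normal c-KIT-high libraries (difference -2.30 ± 0.70, adjusted p = 0.328). In Tgtp2 and Cd74 every CML c-KIT-high library was still below every normal one. Myl10 overlapped, at 48.9, 37.6 and 26.9 CPM in CML c-KIT-high and 43.4, 197 and 58.9 CPM in normal c-KIT-high libraries (difference -3.58 ± 0.96, adjusted p = 0.328). For the interferon-stimulated list the median was 0.17 in c-KIT-high, with 5 members wholly above normal and 5 wholly below (7.46% each, against 7.97% and 6.38% of all genes tested), and for the MHC class II list it was 0.36. The Hedgehog median was -0.29 and the G2/M median 0.23 in c-KIT-high. Ly6a lay in opposite directions, at 205, 248 and 75 CPM in CML c-KIT-high and 62.7, 50.1 and 56.7 CPM in normal c-KIT-high libraries, with a difference of -3.53 ± 0.77 (unadjusted p = 0.000564, adjusted p = 0.294).

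**Figure D5:**
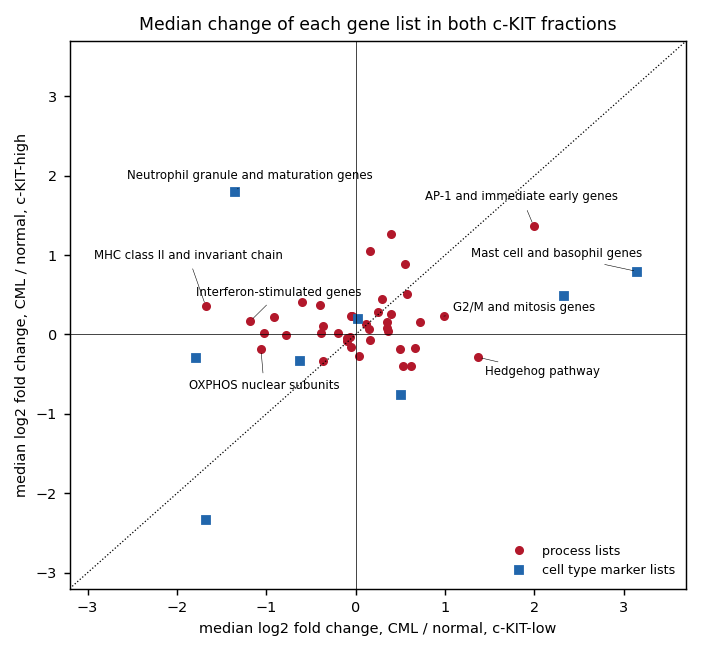
Median log2 fold change of CML over normal for each of the 48 gene lists in c-KIT-low LT-HSCs (x axis) and c-KIT-high LT-HSCs (y axis), with circles for 40 process lists, squares for 8 cell type marker lists and a dotted line where both are equal. The AP-1 list is high on both axes, while the interferon-stimulated, MHC class II and Hedgehog lists lie far from 0 on the x axis only.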

How the data were processed

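The deposited table holds raw counts of reads per gene, which the authors made with STAR 2.5.3a and HTSeq 0.9.1 on GRCm38 with GENCODE M11 genes, per the labels and the submitters' processing notes, from unstranded full-length cDNA libraries. Reads HTSeq gave to no gene stayed out of library sizes. Positions and overlaps came from GENCODE M21 (48435 of 48795 identifiers matched) and promoters from RefSeq. edgeR 4.0.16 (R 4.3.3) filtered genes with filterByExpr, scaled by TMM and tested c-KIT-low CML against normal in 1 quasi-likelihood fit of all 12 libraries, with Benjamini-Hochberg over 14676 genes, and 14095 autosomal ones were reported. The script was tested on simulated data. Alternatives were DESeq2 1.42.0, limma 3.58.1 (voom), other scaling, filters and samples, thinning, a block and leaving out each library. The labels state 4 biological replicates per group, and the count table used here holds 3 libraries per group. Genes and the 48 lists were chosen with earlier results of these data known. Named genes were the largest changes and smallest p each way, up to 4 members of each list by p, and genes of the sort and of the study, and further members of the immediate early, interferon, MHC and marker lists were named after their values were seen. A few members of these lists are counted in the list totals but are not reported here by name.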

Additional observations from a re-analysis of the deposited data

How the results depend on the processing

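All 12 called genes kept their direction in each of 20 other fits, but the number of calls did not hold. The counts of genes higher and lower in CML c-KIT-low LT-HSCs were 248 and 232 with DESeq2, 0 and 6 with limma-voom (748 and 753 at an unadjusted p under 0.05), 132 and 104 with no filter on low counts, and 0 and 0 in the 6 c-KIT-low libraries alone. With the replicate number as a block they were 0 and 0 (843 and 692 at an unadjusted p under 0.05). Same-numbered libraries did not deviate together from their group means (r = -0.00153, 0.0231 and -0.0366). Deviations from means of 3 libraries cannot decide whether the numbers pair them. With 1 library left out the counts ranged over 0 to 303 higher and 0 to 581 lower, the highest without normal library 2, and without normal library 3 they were 16 and 1. Medians of ratios, thinning and length offsets gave 8 and 4, 9 and 4, and 9 and 4. Calls of a larger and of a smaller CML change in c-KIT-low than in c-KIT-high were 120 and 99 with DESeq2, 84 and 47 with no filter, and 0 to 162 and 0 to 246 with 1 library left out. The cause was not tested. Over all genes tested the median log2 fold change was -0.13 in the main analysis and moved to 0.355 with limma-voom, so changes are best read relative to it.

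Uncalled genes changed sign as follows, in log2 fold change. With limma-voom, Abl1 was 0.92, Bcr 0.78, Ptch1 2.82 and Rela 0.36. With length offsets, Btg1 was -0.10, Ifnar1 -0.0491, Ptch1 0.12 and Rela 0.23. With the block, Ptch1 was 0.46 and Rela 0.12. Rela was also 0.0088 with DESeq2 and 0.0088 with medians of ratios, 0.19 in 6 libraries and 0.0822 after thinning. With 1 library left out, the ranges were -0.64 to 0.72 for Abl1, -0.84 to 1.01 for Bcr, -0.14 to 0.88 for Ifnar1, -0.277 to 0.26 for Ifnar2, -0.0495 to 1.3 for Kit, -1.275 to 0.0858 for Nfkb2, -6.0 to 0.76 for Ngp, -0.82 to 4.29 for Ptch1, -0.42 to 0.77 for Rela and -0.0935 to 1.04 for Stat5b. Of the list medians, 907 of 960 alternative values lay within 1 SD of the main value, which does not mean that their signs held. Sign changes were most frequent for the BCL2 family (8 of 20 other fits) and cholesterol synthesis (7 of 20). MYC targets, glycolysis and p53 targets followed, with 6 of 20 each. Detection limits the precision: 589 genes had no count in any normal c-KIT-low library, and their fold changes are bounds.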

Other observations

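Apoptosis regulators of the BCL2 family lay in both directions. Of 18 tested, 6 had all CML libraries above all normal libraries (33.3%, against 12.4% of all genes tested) and 1 had them below, with no call. The list's median was -0.04, with 10 of the 18 log2 fold changes below 0. Of the 18, 5, 5 and 3 had no count in normal libraries 1 to 3, against 0, 1 and 0 in CML libraries 1 to 3. Such members can pass the filter through the groups where they are high, so the share above is not independent of detection. The proapoptotic genes Bcl2l11, which encodes BIM, at 5.54, 2.3 and 2.83 CPM, and Pmaip1, which encodes NOXA, at 3.43, 2.38 and 0.676 CPM, had counts in CML libraries and none in normal libraries. Bid, another proapoptotic gene, lay the other way, at 69.5, 78.8 and 82.8 CPM in CML libraries, against 373, 149.9 and 181 CPM in normal libraries.

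Heat shock and ER chaperones had 12 of 51 members wholly below normal (23.5%, against 7.9% of all genes tested) and 4 wholly above, with no call. Hspa8, the constitutive HSC70 chaperone, had 317, 355 and 405 CPM in CML libraries, against 1122, 659 and 699.9 CPM in normal libraries, and its cochaperone gene Dnaja1 had 51.1, 47 and 49 CPM, against 166, 92.9 and 92 CPM. Of 26 cholesterol synthesis genes, 4 lay wholly below (15.4%) and 1 wholly above (3.85%), and the list's median of -0.06 changed sign in 7 of 20 other fits. Those below included Fdft1, which encodes squalene synthase, at 23.3, 27.7 and 29.4 CPM in CML libraries, against 95.3, 58.5 and 72.7 CPM in normal libraries. Of 28 megakaryocyte and platelet genes tested, 3 lay wholly above normal (10.7%, against 12.4% of all genes tested) and 5 wholly below (17.9%, against 7.9%). The list's median of -0.63 changed sign without normal library 3, and its summed level overlapped between the groups. Itga2b lay above normal. The von Willebrand factor gene Vwf lay below, at 89.9, 157 and 138 CPM in CML libraries, against 162, 893 and 184 CPM in normal libraries. So did the platelet factor gene Pf4, at 509, 417 and 215 CPM in CML libraries, against 622, 602 and 3252 CPM in normal libraries. None of these genes passed the test with edgeR.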
